A study of Mus musculus with 16 samples.

Results

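The hypoxia pathway of primary mouse brain endothelial cells was followed through 10 genes. These are the hypoxia-inducible factor alpha subunits Hif1a and Epas1, the prolyl hydroxylases Egln1, Egln2 and Egln3, and the target genes Vegfa, Adm, Bnip3, Ankrd37 and Ndrg1. They were picked by name out of the 39057 gene rows of the count table, and 10 of 10 were found. The mouse identifiers of the rows were translated to symbols with GENCODE mouse release M21. All 10 had enough reads to be tested, among 12481 genes tested in all.

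The cells came from the cerebral cortex of targeted replacement mice that carry the human APOE3 or the human APOE4 gene in place of mouse Apoe, under the mouse promoter, in every cell that uses it. The mice were 21 to 28 days old, and each library came from the brain of 1 animal, with 8 APOE3 libraries and 8 APOE4 libraries, each made up of 4 males and 4 females. Freshly isolated cells were exposed to 8 µg/ml puromycin, an antibiotic that brain endothelial cells survive better than other cells do, and were then grown to confluence in a 12-well plate without any further treatment. The labels name no low-oxygen treatment, so the values describe the pathway without that stimulus. The comparison asked how transcript levels of these genes differed between APOE4 and APOE3 cells.

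Hypoxia-inducible factors (HIFs) pair an alpha subunit, such as the products of Hif1a and Epas1, with the constitutive partner encoded by Arnt. When oxygen is present, prolyl hydroxylases of the Egln family mark the alpha subunit, the von Hippel-Lindau protein recognizes the mark, and the subunit is degraded. When oxygen falls, the subunit accumulates and the pair binds hypoxia response elements near genes for angiogenesis, glycolysis and mitochondrial turnover. This control acts largely on the protein, which was not measured here. Egln3 and, to a smaller extent, Egln1 are themselves targets of the pathway. In endothelial cells Epas1 is known as the prominent alpha subunit.

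Total counts per library ran from 12717847 to 18624417, and human APOE was counted in all 16 libraries (7672 to 22318 reads), with 128 to 290 reads on mouse Apoe. The 18 listed brain endothelial markers were all tested and summed to 18892 to 20063 CPM (counts scaled to a common library size) in APOE3 and 18575 to 20580 CPM in APOE4 libraries. Markers of other cells were far lower. The 11 pericyte and smooth muscle markers summed to 188.5 to 355.5 CPM in APOE3 and 223.3 to 340.0 CPM in APOE4 libraries, with 4 of them (Rgs5, Kcnj8, Abcc9 and Vtn) too low to test, and the 8 fibroblast markers summed to 26.0 to 80.3 and 25.2 to 114.8 CPM, with Dpt at 0. The 9 microglia and macrophage markers stayed at or under 0.792 CPM in sum, with P2ry12, Itgam and C1qa at 0. The 7 astrocyte markers summed to 31.9 to 41.7 and 33.4 to 43.4 CPM, with Aqp4, Slc1a2 and S100b at no more than 3 reads in any library, the 8 neuron markers to 8.98 to 13.01 and 10.9 to 15.6 CPM, and the 7 oligodendrocyte markers to 0.670 to 1.97 and 0.504 to 1.65 CPM. One difference ran through the whole set of libraries: all 25 listed cell cycle genes had positive log2 fold changes in APOE4 cells, and 23 of them passed the test. The mean log2 CPM of that list was 5.67 ± 0.360 (SD, n = 8, range 5.18 to 6.24) in APOE3 and 6.29 ± 0.277 (n = 8, range 5.97 to 6.77) in APOE4 libraries. In bulk cultures such as these, fewer cells of a kind and less RNA per cell cannot be told apart.

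The bases just upstream of these genes were searched for the sequence that the factors recognize. Promoter windows of 250 bases before each annotated start were taken from RefSeq (build GRCm38.p6) for the 8 of the 10 genes that matched, Hif1a, Egln1, Egln2, Egln3, Vegfa, Adm, Bnip3 and Ankrd37, which had 10 windows. Epas1 and Ndrg1 had no entry. The core of the hypoxia response element was searched as ACGTG and as GCGTG on both strands, so that CACGT and CACGC, the same cores on the other strand, count as well. The palindrome CACGTG counts once on each strand, and overlapping matches are counted separately. Windows are printed for the 2 members that rose, Hif1a and Egln3. Those of Bnip3 and Ankrd37 are printed because, among the targets, they had the densest and the most proximal matches. Capitals mark the cores, and each sequence runs 5′ to 3′ in the direction of transcription up to the base before the start.
Hif1a (chr12:73907617-73907866, plus strand): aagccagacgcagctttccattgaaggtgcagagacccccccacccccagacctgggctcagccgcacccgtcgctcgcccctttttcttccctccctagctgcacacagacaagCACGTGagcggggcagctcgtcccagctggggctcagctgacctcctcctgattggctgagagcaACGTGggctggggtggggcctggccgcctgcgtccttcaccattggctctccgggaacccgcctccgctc
Egln3 (chr12:54203875-54204124, minus strand): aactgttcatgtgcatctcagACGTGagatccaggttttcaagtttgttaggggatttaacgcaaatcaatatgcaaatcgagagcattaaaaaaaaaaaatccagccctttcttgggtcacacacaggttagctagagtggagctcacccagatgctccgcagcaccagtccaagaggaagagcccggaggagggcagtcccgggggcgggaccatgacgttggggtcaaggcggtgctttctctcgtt
Bnip3 (chr7:138909507-138909756, minus strand): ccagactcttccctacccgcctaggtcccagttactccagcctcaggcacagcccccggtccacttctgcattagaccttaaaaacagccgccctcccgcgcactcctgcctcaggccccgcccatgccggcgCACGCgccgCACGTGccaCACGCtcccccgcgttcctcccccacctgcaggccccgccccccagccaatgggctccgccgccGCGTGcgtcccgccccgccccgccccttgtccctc
Ankrd37 (chr8:45999851-46000100, minus strand): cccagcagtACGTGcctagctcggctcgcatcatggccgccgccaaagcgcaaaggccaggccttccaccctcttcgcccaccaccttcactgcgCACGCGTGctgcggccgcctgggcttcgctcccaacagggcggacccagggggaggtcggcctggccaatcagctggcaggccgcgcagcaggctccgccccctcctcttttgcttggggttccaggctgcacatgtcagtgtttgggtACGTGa

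The Hif1a window held 3 matches, of which 2 came from a CACGTG palindrome, and the nearest began 70 bases before the start. The Egln3 window held 1 match, 229 bases before the start. The Bnip3 window held 5 matches between 117 and 35 bases before the start, and the Ankrd37 window held 4, the nearest 6 bases before the start. The RefSeq starts of Hif1a and Ankrd37 used here lie well inside the longer spans that GENCODE gives these genes. An Egln2 window (27165729 to 27165978) and a Vegfa window (46025164 to 46025413) also lie inside the GENCODE spans of their genes. Across the 8 genes, 9 of 10 windows and 8 of 8 genes had a match, whereas 38.6% of all 32851 windows and 56.1% of the 12220 windows of tested genes had one. These shares are per window, and a share per gene was not taken. The window without a match was 1 of the 2 Vegfa windows, the one just before the start of the GENCODE span. Vegfa thus counts as matched through its internal window alone. A match of 5 letters is a description of the sequence, and binding was not measured.

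Of the 10 genes, 2 rose in APOE4 cells and 0 fell (edgeR quasi-likelihood test, Benjamini-Hochberg adjusted p under 0.05 over 12481 genes), beside 6.71% of all genes tested that rose and 6.09% that fell, 12.8% in all. The 2 genes were Hif1a and Egln3. For 1 of the 10, Hif1a, the libraries of both genotypes did not overlap, as for 0.625% of all genes tested in either direction. The log2 fold changes of the other 8 lay on both sides of 0, and the median over the 10 was 0.01 against 0.00 (-0.000219) over all genes tested.

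**Figure D1:**
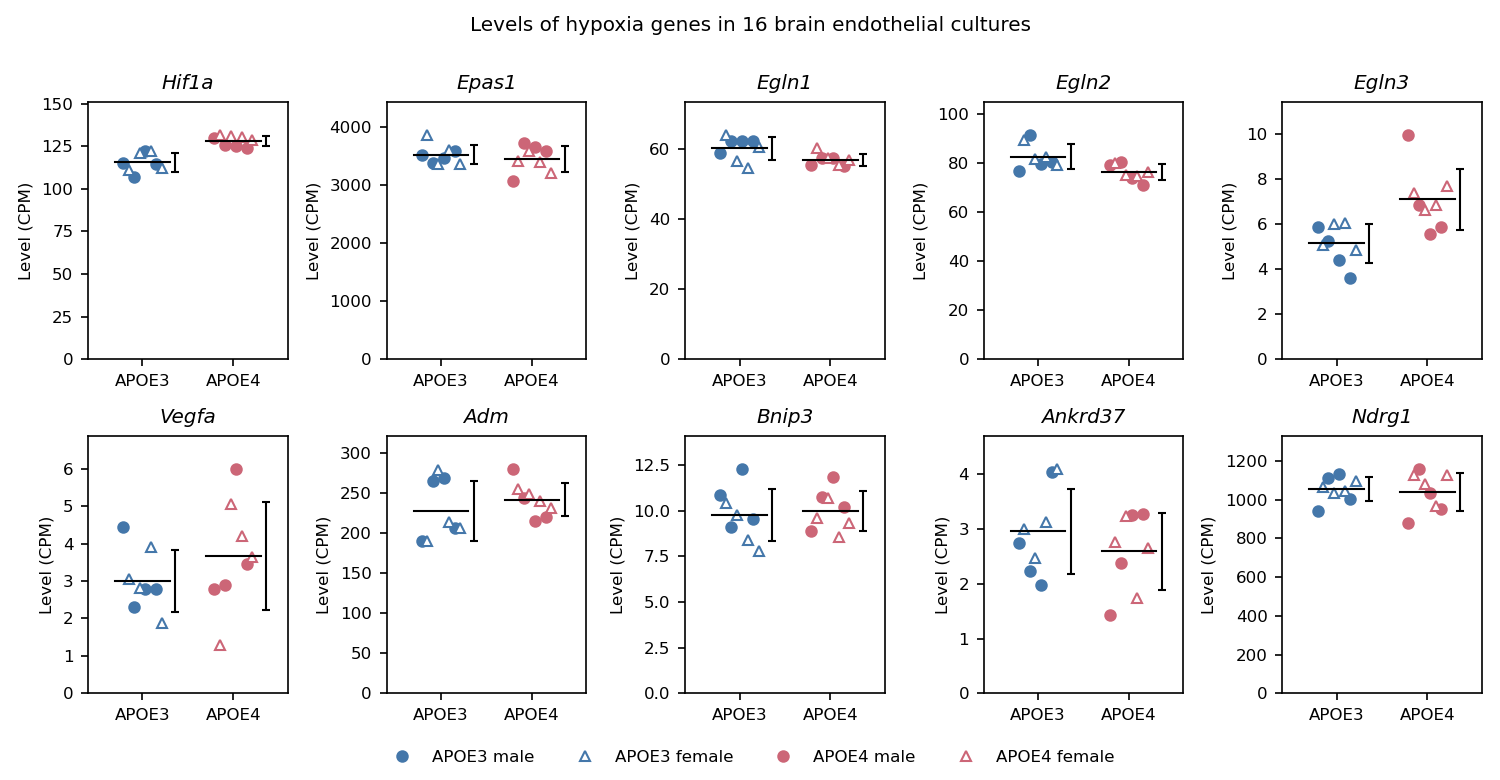
Level of each of the 10 hypoxia genes in CPM (vertical axis, from 0) in the 16 libraries, by APOE genotype, with filled circles for males and open triangles for females. Horizontal lines are means and bars are SDs of 8 libraries. The 8 APOE4 libraries of Hif1a lie at 123.9 to 131.5 CPM, all above the APOE3 libraries, and for every other gene the genotypes overlap.

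Hif1a (ENSMUSG00000021109.13, chromosome 12 from 73901375 to 73947530, plus strand, GRCm38) encodes the HIF-1 alpha subunit. Its lowest, median and highest levels were 107.2, 114.7 and 122.3 CPM in the 8 APOE3 libraries and 123.9, 129.4 and 131.5 CPM in the 8 APOE4 libraries. No APOE3 library reached the lowest APOE4 library, a separation that 0.256% of all genes tested had in this direction. The mean was 115.7 ± 5.60 CPM (SD, n = 8) in APOE3 and 128.4 ± 2.98 CPM (n = 8) in APOE4 cells, a log2 fold change of 0.15 (95% interval 0.08 to 0.21, SE 0.0311, adjusted p = 0.00802) or 10.9% more transcript (6.05% to 16.02%). Each library held 1630 to 2405 reads of the gene. A small share of the gene is shared with other transcripts: the antisense gene Gm15283 overlaps 330 of 5896 exon bases and had 73 reads over all libraries. The protein-coding gene Gm49321, on the same strand as Hif1a, shares 148 of those exon bases and has no row in the count table.

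Because no APOE3 library reached the lowest APOE4 library, Hif1a levels were bound to be separated by genotype within each sex too. Male libraries held 107.2 to 122.0 CPM with APOE3 and 123.9 to 129.9 CPM with APOE4, and female libraries 111.3 to 122.3 and 128.8 to 131.5 CPM. In 1 edgeR fit of the 4 groups, the log2 fold change was 0.14 in males (adjusted p = 0.220) and 0.16 in females (adjusted p = 0.0867). With 4 libraries a group, 0 of 12481 genes passed in either sex. At an unadjusted edgeR p under 0.05, 3 of the 10 genes (Hif1a, Egln1 and Egln3) passed in males, beside 14.2% of all genes tested (1775), and 2 (Hif1a and Egln3) in females, beside 19.5% (2428). The effect on Hif1a differed between the sexes by 0.02 (95% interval -0.11 to 0.16, adjusted p = 1.00).

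Epas1 (ENSMUSG00000024140.9, chromosome 17 from 86753700 to 86833410, plus strand) encodes the HIF-2 alpha subunit and was the most abundant of the 10 genes. In APOE3 libraries it had a lowest, median and highest level of 3366, 3490 and 3856 CPM, and in APOE4 libraries of 3067, 3495 and 3713 CPM. The genotypes overlapped over most of their range. On the log2 scale the change was -0.03 (SE 0.0400, 95% interval -0.11 to 0.05, adjusted p = 0.678), and the upper bound of this interval lay below the lower bound of the interval of Hif1a. With 1 library left out the value ran from -0.04 (without APOE4 replicate 2) to -0.0063 (without APOE4 replicate 1).

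The relation between both alpha subunits was taken within each library, where it does not depend on the scaling between libraries. Epas1 had a median of 30.2 times as many reads as Hif1a in APOE3 libraries (27.8 to 34.6) and 26.7 times as many in APOE4 libraries (23.6 to 29.6). The log2 ratio was 4.93 ± 0.0992 (SD, n = 8) in APOE3 and 4.75 ± 0.118 (n = 8) in APOE4 cells, a difference of -0.18 (two-sided exact permutation test over 12870 assignments, p = 0.00513). The ranges, 4.80 to 5.11 and 4.56 to 4.89, overlapped. The numerator did not pass its own test, and the denominator was the gene that rose.

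**Figure D2:**
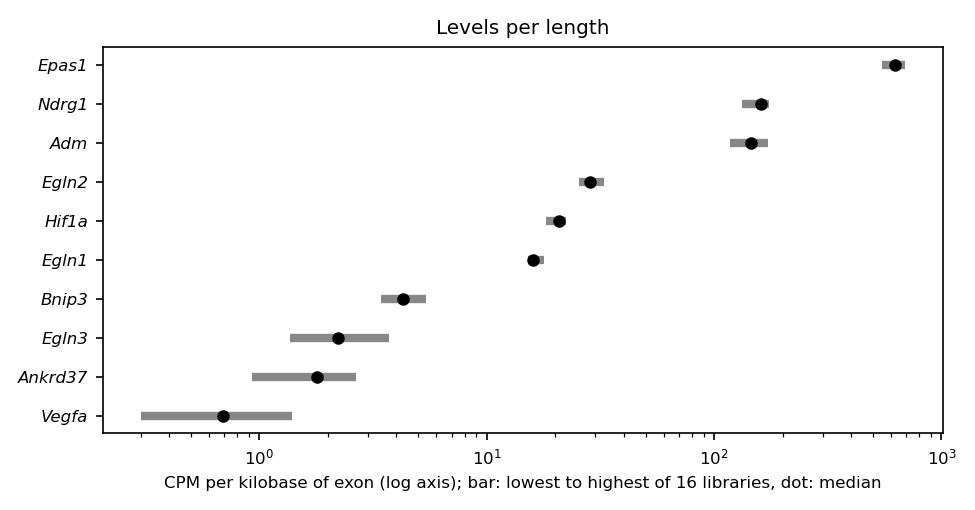
Level of each gene in CPM per kilobase of exon (horizontal log axis), with the bar from the lowest to the highest of 16 libraries and the dot at the median. Epas1 has the highest median (624.4) and Vegfa the lowest (0.694).

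Per length, the 10 genes spanned a wide range of levels in these cultures. Divided by the union of each gene's exons, the median level was 624.4 CPM per kilobase for Epas1 (548.6 to 689.9 over 16 libraries), 160.1 for Ndrg1, 145.5 for Adm, 28.4 for Egln2, 20.9 for Hif1a, 16.01 for Egln1, 4.28 for Bnip3, 2.23 for Egln3, 1.79 for Ankrd37 and 0.694 for Vegfa. The ranges of Ndrg1 (133.2 to 175.1) and Adm (117.3 to 172.8) overlapped, with Ndrg1 higher in 13 of 16 libraries. Those of Egln3 (1.36 to 3.73) and Ankrd37 (0.929 to 2.66) overlapped too, with Egln3 higher in 12 of 16. The ranges of Bnip3 and Egln3, and of Ankrd37 and Vegfa, overlapped between libraries, although the first of each pair was higher in 16 of 16. The other neighbours in this order did not overlap. Among the hydroxylases, Egln2 and Egln1 were thus well above Egln3 per length. The spread was widest for genes at low levels. The coefficient of variation over 16 libraries was 5.16% for Egln1, 5.60% for Epas1, 6.42% for Hif1a, 6.68% for Egln2 and 7.65% for Ndrg1, then 12.4% for Bnip3 and 12.8% for Adm, and 24.3% for Egln3, 26.8% for Ankrd37 and 35.7% for Vegfa.

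Egln3 (ENSMUSG00000035105.5, chromosome 12 from 54178981 to 54203860, minus strand) encodes the prolyl hydroxylase PHD-3, an oxygen sensor whose own gene responds to the pathway. Levels of Egln3 (lowest, median and highest) were 3.62, 5.15 and 6.05 CPM in APOE3 and 5.56, 6.85 and 9.93 CPM in APOE4 libraries. The APOE3 median was exceeded in 8 of 8 APOE4 libraries and the highest APOE3 library in 6 of 8, with APOE4 replicate 1, a male, the highest. The mean was 5.13 ± 0.850 CPM (SD, n = 8) in APOE3 and 7.09 ± 1.34 CPM (n = 8) in APOE4 cells, which gave 37.8% more transcript (15.5% to 64.3%) and a log2 fold change of 0.46 (95% interval 0.21 to 0.72, SE 0.122, adjusted p = 0.0197). Without that replicate the log2 fold change was 0.38, and the call held. The reads behind these levels were few, 60 to 94 per APOE3 library and 94 to 131 per APOE4 library.

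By sex, Egln3 levels in males were 3.62 to 5.87 CPM with APOE3 and 5.56 to 9.93 CPM with APOE4, which overlapped. In females they were 4.82 to 6.05 and 6.61 to 7.68 CPM, which did not, in a split of 4 against 4 libraries. How many of all genes separate at that size was not counted. Between the genotypes Egln3 differed by 0.55 in males (adjusted p = 0.217) and by 0.38 in females (adjusted p = 0.238) on the log2 scale, and neither passed. The difference between the sexes was -0.17 (95% interval -0.69 to 0.36, adjusted p = 1.00).

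Egln2 and Egln1, the hydroxylases PHD-1 and PHD-2, had lower means in APOE4 cells, and neither passed the test. Egln1 is the hydroxylase known to set HIF levels at normal oxygen, and Egln2 is the family member that is not induced by hypoxia. Egln2 (ENSMUSG00000058709.11, chromosome 7 from 27158658 to 27166802, minus strand) had lowest, median and highest levels of 76.7, 81.0 and 91.4 CPM in APOE3 and 70.9, 75.8 and 80.5 CPM in APOE4 libraries. All 8 APOE4 libraries lay below the APOE3 median and 5 of 8 below every APOE3 library. The log2 fold change of Egln2 was -0.11 (SE 0.0392, 95% interval -0.20 to -0.03, adjusted p = 0.0592). With DESeq2's Wald test in place of edgeR the adjusted p of Egln2 was 0.0462. In the 7 other settings that kept all 16 libraries Egln2 did not pass. Among them were edgeR's likelihood-ratio test (adjusted p = 0.0611) and limma's voom (adjusted p = 0.0607).

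Egln1 (ENSMUSG00000031987.6, chromosome 8 from 124908587 to 124949324, minus strand) had lowest, median and highest levels of 54.7, 61.5 and 64.0 CPM in APOE3 and 55.2, 57.2 and 60.4 CPM in APOE4 libraries. The APOE4 libraries lay within the APOE3 range, all 8 below the APOE3 median. The log2 fold change of Egln1 was -0.08 (SE 0.0361, 95% interval -0.16 to -0.0049, adjusted p = 0.145). It was -0.12 in males and -0.04 in females, and those of Egln2 were -0.11 and -0.12. The 3 hydroxylases did not share a direction: the least abundant one rose, and the values of the 2 abundant ones lay on the other side of 0.

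Adm (ENSMUSG00000030790.15, chromosome 7 from 110627661 to 110629820, plus strand) encodes adrenomedullin, a vasodilator peptide that endothelial cells secrete. Across libraries its lowest, median and highest levels were 189.9, 210.5 and 278.6 CPM in APOE3 and 215.1, 242.0 and 279.7 CPM in APOE4 libraries. The 8 APOE4 libraries were all higher than the APOE3 median, but some APOE3 libraries reached nearly as high as the highest APOE4 library. The mean was 227.6 ± 37.3 CPM in APOE3 and 241.8 ± 20.7 CPM in APOE4 cells (SD, n = 8 each), or 0.09 on the log2 scale (SE 0.0806, 95% interval -0.08 to 0.26, adjusted p = 0.511). Leaving out 1 library moved this value from 0.05 (without APOE3 replicate 1) to 0.13 (without APOE3 replicate 6).

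Vegfa (ENSMUSG00000023951.17, chromosome 17 from 46016993 to 46032369, minus strand) encodes vascular endothelial growth factor A, the angiogenic ligand for which the pathway is best known. Vegfa levels (lowest, median and highest) were 1.88, 2.80 and 4.43 CPM in APOE3 and 1.29, 3.55 and 5.98 CPM in APOE4 libraries, from 23 to 101 reads per library. Both the lowest and the highest of the 16 libraries were APOE4 libraries. The estimate was 0.29 on the log2 scale (SE 0.230, 95% interval -0.19 to 0.77, adjusted p = 0.432), and it was smaller than the spread of the libraries could resolve. Leaving out 1 library moved it from 0.15 (without APOE4 replicate 3) to 0.42 (without APOE4 replicate 5).

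Bnip3 and Ankrd37 were low as well. Bnip3 (ENSMUSG00000078566.8, chromosome 7 from 138890836 to 138909519, minus strand) encodes a mitochondrial receptor for mitophagy. Its lowest, median and highest levels were 7.77, 9.66 and 12.3 CPM in APOE3 and 8.59, 9.91 and 11.8 CPM in APOE4 libraries, the latter inside the range of the former. For Bnip3 the log2 fold change was 0.03 (SE 0.0914, 95% interval -0.16 to 0.22, adjusted p = 0.865). These Bnip3 values are uncertain, because 47.2% of the 50-base stretches of its transcripts also occur in 6 other annotated genes, among them AC160336.1, Gm45507 and Gm16439.

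Ankrd37 (ENSMUSG00000050914.16, chromosome 8 from 45996902 to 46005707, minus strand) encodes an ankyrin repeat protein that is a common marker gene of the hypoxic response. Ankrd37 levels (lowest, median and highest) were 1.98, 2.87 and 4.09 CPM in APOE3 and 1.43, 2.70 and 3.28 CPM in APOE4 libraries, from 18 to 67 reads. The groups overlapped, and the log2 fold change was -0.19 (SE 0.186, 95% interval -0.57 to 0.20, adjusted p = 0.546). With 1 library left out it ranged from -0.25 (without APOE3 replicate 3) to -0.11 (without APOE4 replicate 1). Lrp2bp on the opposite strand overlaps 349 of its 1539 exon bases and Ufsp2 overlaps 57, and the strand setting of the counting is not given in the sources used here.

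Ndrg1 (ENSMUSG00000005125.12, chromosome 15 from 66929318 to 66969640, minus strand), a stress-responsive gene of cell differentiation, was the second most abundant member per length. Its lowest, median and highest levels were 938.8, 1056 and 1130 CPM in APOE3 and 878.8, 1057 and 1155 CPM in APOE4 libraries, so that the APOE4 range enclosed the APOE3 range. The log2 fold change was -0.02 (SE 0.0529, 95% interval -0.13 to 0.09, adjusted p = 0.859). None of the 5 target genes thus passed the test, and the intervals of Vegfa and Ankrd37 were the widest.

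**Figure D3:**
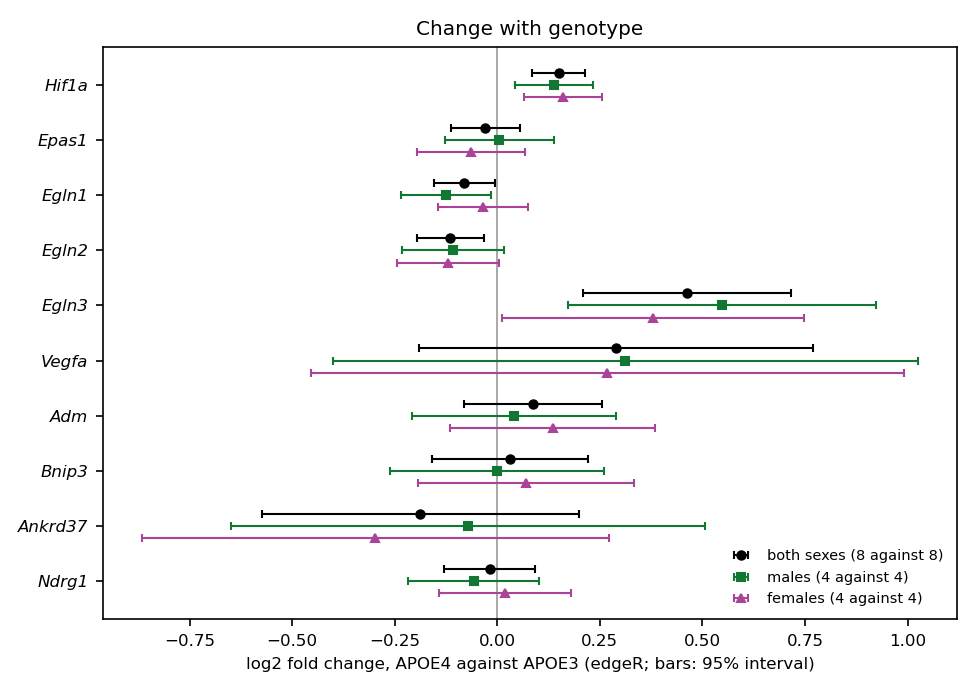
Log2 fold change of each gene, APOE4 against APOE3 (horizontal axis), with 95% intervals derived from the edgeR fits. Circles are both sexes (8 against 8 libraries), squares are males and triangles are females (4 against 4 each). Over both sexes the intervals of Hif1a (0.08 to 0.21) and Egln3 (0.21 to 0.72) lie above 0, and those of Egln1 and Egln2 lie below 0 without passing the adjusted test.

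A difference between the sexes in the effect of genotype was not detected for any of the 10 genes. The adjusted p of the difference was 1.00 for each of them (edgeR), and 0 of 12481 genes passed, with 345 at an unadjusted p under 0.05 (2.76%), 0 of the 10 among them. Between females and males, averaged over genotypes, 9 genes passed (0.0721%) and 532 had an unadjusted p under 0.05 (4.26%), and 0 of the 10 were in either set. The lowest unadjusted p by sex among the 10 was that of Bnip3 (log2 difference -0.17, female against male, adjusted p = 1.00), with a mean of 10.4 CPM in APOE3 males and 9.09 CPM in APOE3 females.

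The pair of called genes moved beside the cell cycle list described above. When the cell cycle score of each library was added to the edgeR model as a covariate, 0 of 12481 genes passed, with 895 at an unadjusted p under 0.05, and the log2 fold change was 0.09 for Hif1a (SE 0.0391, 95% interval 0.0057 to 0.17, adjusted p = 0.672) and 0.28 for Egln3 (SE 0.166, adjusted p = 0.753). The score itself differed between the genotypes, so the genotype and the score share much of their variation in this fit. Of the other cell types, 6 of 7 tested pericyte and smooth muscle markers and 4 of 5 tested fibroblast markers had positive log2 fold changes, with 0 and 1 (Mgp, 0.71, adjusted p = 0.00766) passing the test. Both tested astrocyte markers and both tested neuron markers had positive values as well (medians 0.39 and 0.42), the 1 tested oligodendrocyte marker had -0.59, and none of these passed. Of the 18 brain endothelial markers, 12 had negative values, Slco1c1 fell (-0.31, adjusted p = 0.0472) and Emcn rose (0.14, adjusted p = 0.0106). The part of these markers in the 2 results was not tested.

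**Figure D4:**
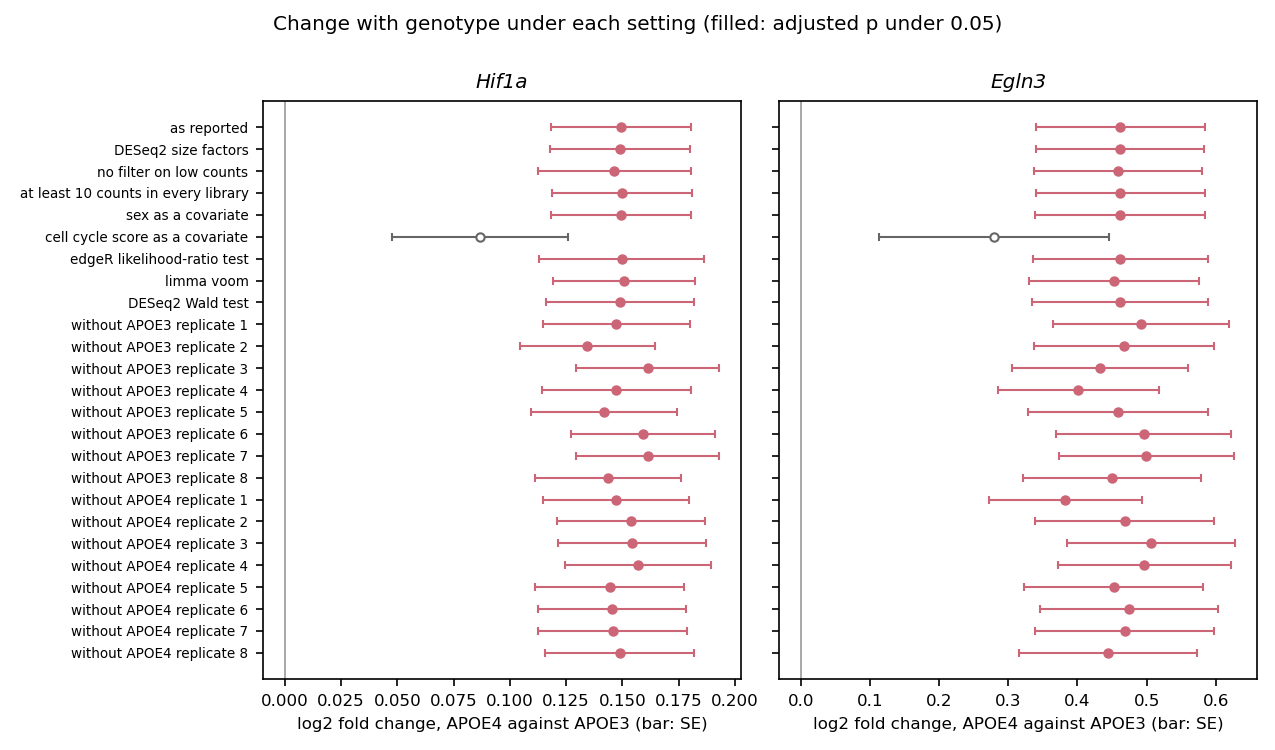
Log2 fold change of Hif1a (left) and Egln3 (right), APOE4 against APOE3, with the SE as bars, as reported, under 8 other settings and in 16 fits that each left out 1 library, filled where the adjusted p was under 0.05. All points lie above 0, and the cell cycle score as a covariate is the setting with open points (0.09 and 0.28).

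Both calls held in each of the 16 fits that left out 1 library. Hif1a ranged from 0.13 to 0.16 (adjusted p 0.00332 to 0.0214) and Egln3 from 0.38 to 0.51 (adjusted p 0.0120 to 0.0402).

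Covariation among the 10 genes within the genotypes was taken over pairs. Log2 CPM values were centred on the mean of each genotype and sex, and 45 pairs were compared over 16 libraries. None of the pairs passed Benjamini-Hochberg adjustment by Pearson or Spearman correlation, 5 had an unadjusted Pearson p under 0.05, and 24 coefficients were positive and 21 negative. The pair with the lowest p was Egln1 and Ndrg1, with r = 0.50 (permutation p = 0.0032, adjusted p = 0.145) and rho = 0.60 (permutation p = 0.0051, adjusted p = 0.231). Its r was 0.70 without the 2 libraries farthest from the median of Egln1, 0.79 in males and 0.51 in females. In each pair below, the farthest libraries are likewise those of the gene named first, and these r values were not tested. The largest coefficients were negative and did not pass either. Egln3 and Ankrd37 had r = -0.70 (permutation p = 0.0214, adjusted p = 0.321) and rho = -0.65 (permutation p = 0.0277, adjusted p = 0.416), with r = -0.43 without the 2 farthest libraries, -0.81 in males and -0.37 in females. Adm and Ankrd37 had r = -0.64 (permutation p = 0.0161, adjusted p = 0.321) and rho = -0.62 (permutation p = 0.0260, adjusted p = 0.416), with r = -0.50 without the 2 farthest, -0.82 in males and -0.32 in females. Epas1 had r = -0.62 with Egln3 (permutation p = 0.0400, adjusted p = 0.365, rho = -0.54, permutation p = 0.0470, adjusted p = 0.435) and r = 0.57 with Bnip3 (permutation p = 0.0419, adjusted p = 0.365, rho = 0.51, permutation p = 0.0668, adjusted p = 0.480), and these were -0.38 and 0.36 without the 2 farthest libraries. Hif1a and Egln3, the genes that rose, had r = 0.24 with each other (permutation p = 0.442, adjusted p = 0.622) and rho = 0.38 (permutation p = 0.214, adjusted p = 0.480). Without the 2 libraries farthest from the median of Hif1a their r was 0.55, which was not tested.

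The genes whose centred levels followed those of the called members most closely were searched among 12480 others. For Hif1a they were Sdcbp2 (r = 0.91, n = 16), Mkks (r = 0.90) and Mall (r = 0.89), all on chromosome 2, and their log2 fold changes with genotype were 0.42 (adjusted p = 0.0222), 0.07 (adjusted p = 0.610) and 0.27 (adjusted p = 0.00608). For Egln3 they were Rab8a (r = 0.90), Uhrf2 (r = 0.87) and Snrnp40 (r = 0.85), with log2 fold changes of 0.08, 0.11 and 0.03, none of which passed. These coefficients are the highest of a long search and describe the 16 libraries, which were the only ones searched.

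Around the 10 genes, the rest of the pathway was read from 3 lists. Of 16 HIF partners and regulators, all tested, 1 rose and 0 fell (6.25%, median log2 fold change -0.04). Of 20 HIF targets in glycolysis, 18 were tested, 0 rose and 1 fell (5.56%, median 0.05). Of 44 HIF targets outside glycolysis, 40 were tested, 2 rose and 3 fell (12.5%, median -0.02). No list was above the share over all genes tested (12.8%), and each list's median lay close to 0.

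**Figure D5:**
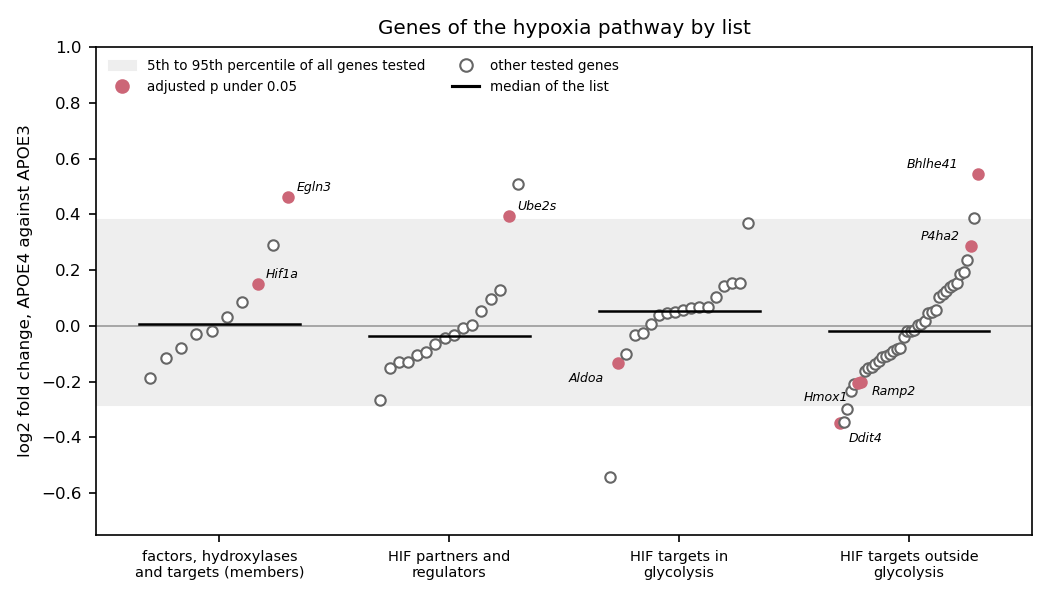
Log2 fold change, APOE4 against APOE3 (vertical axis), of the tested genes of each hypoxia list, sorted within the list, with the list's median as a line and genes at an adjusted p under 0.05 filled and named. The grey band spans the 5th to 95th percentile of all genes tested, and the medians, -0.04 to 0.05, lie near 0.

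Among the partners, Arnt, which encodes the shared beta subunit, had a log2 fold change of -0.04 (adjusted p = 0.481), and Vhl, the recognition subunit of the ubiquitin ligase, had -0.06 (adjusted p = 0.571). Hif1an, the asparagine hydroxylase that blocks coactivator binding, had -0.09 (adjusted p = 0.184). These 3 genes were named after their values were seen, for their place in the pathway. Ube2s, a ubiquitin-conjugating enzyme listed for its action on the von Hippel-Lindau protein and better known for its work with the anaphase-promoting complex in mitosis, rose from 38.0 ± 6.27 to 50.1 ± 7.91 CPM, by 0.39 on the log2 scale (SE 0.0988, adjusted p = 0.0152). Its value was -0.01 once the cell cycle score was in the model. Hif3a, an alpha subunit with inhibitory isoforms, had 142.4 ± 23.0 CPM in APOE3 and 118.4 ± 15.7 CPM in APOE4 cells (SD, n = 8 each) and a change of -0.27 on the log2 scale that did not pass (SE 0.0894, adjusted p = 0.0548). Hif3a did pass with DESeq2's Wald test (adjusted p = 0.0305) and edgeR's likelihood-ratio test (adjusted p = 0.0328). It did not pass in the other settings that kept all 16 libraries, such as limma's voom (adjusted p = 0.0570). Arnt2, a neuronal relative of Arnt, had 9 to 40 reads per library and a value of 0.51 (SE 0.257, adjusted p = 0.194).

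Among the glycolytic targets, Aldoa, which encodes aldolase A, fell from 549.5 ± 11.8 to 501.2 ± 14.3 CPM (SD, n = 8 each). The Aldoa libraries of the 2 genotypes did not overlap, as for 46 of 12481 genes tested in this direction. The log2 difference was -0.13 (SE 0.0271, adjusted p = 0.00741), and -0.09 once the cell cycle score was in the model. Of the 18 tested genes of this list 13 had positive and 5 negative values, beside 6232 positive and 6249 negative values among all genes tested, and Aldoa was the one that passed. Slc2a1, the glucose transporter of the blood-brain barrier, had 0.07, Pgk1 0.11, Ldha 0.04 and Gapdh 0.15 (adjusted p = 0.109), and none of the 4, named after their values were seen, passed. Tpi1, also named after its value was seen, had the lowest adjusted p of this list after Aldoa. Its value was 0.14 (edgeR, adjusted p = 0.0508), opposite in sign to that of Aldoa. Hk2, a hexokinase with 2 to 29 reads per library, had -0.54 (SE 0.352, adjusted p = 0.326), Slc16a3, a lactate exporter, 0.37 (adjusted p = 0.185) and Pdk1, which restrains pyruvate entry into mitochondria, 0.15 (adjusted p = 0.214).

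Among the other targets, 2 rose. Bhlhe41, a transcriptional repressor also tied to the circadian clock, rose from 9.97 ± 2.86 to 14.5 ± 2.21 CPM, by 0.54 on the log2 scale (SE 0.144, adjusted p = 0.0201). P4ha2, a collagen prolyl hydroxylase, rose from 20.3 ± 2.62 to 24.7 ± 2.19 CPM (0.28, SE 0.0755, adjusted p = 0.0201). Another 3 targets fell. Ddit4, an inhibitor of mTOR signaling induced by many stresses, fell from 105.2 ± 17.8 to 82.6 ± 8.59 CPM (-0.35, SE 0.0867, adjusted p = 0.0148). Hmox1, heme oxygenase, fell from 258.2 ± 20.0 to 224.3 ± 18.2 CPM (-0.20, SE 0.0527, adjusted p = 0.0180). Ramp2, the coreceptor that makes the receptor Calcrl respond to adrenomedullin, fell from 462.2 ± 41.3 to 401.6 ± 30.2 CPM (-0.20, SE 0.0542, adjusted p = 0.0209). With the cell cycle score in the model the values turned to 0.0078 for Ddit4 and 0.0090 for Ramp2, were 0.11 for Bhlhe41 and 0.12 for P4ha2, and -0.28 for Hmox1, and none passed. Selenbp1, a selenium-binding protein, had 9.11 ± 2.85 CPM in APOE3 and 11.8 ± 1.82 CPM in APOE4 cells and did not pass (0.39, SE 0.155, adjusted p = 0.105).

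For adrenomedullin, ligand and receptor can be set side by side. The ligand Adm had 227.6 ± 37.3 CPM in APOE3 and 241.8 ± 20.7 CPM in APOE4 cells, the receptor Calcrl had 59.1 ± 5.56 and 55.0 ± 5.31 CPM (log2 fold change -0.10, adjusted p = 0.292, named after its value was seen), and the coreceptor Ramp2 was the one of the 3 that passed. For Vegfa the receptors Flt1 (-0.02, adjusted p = 0.804) and Kdr (-0.04, adjusted p = 0.468), also named after their values were seen, had values close to 0.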

How the data were processed

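RNA was measured by poly-A selected paired-end sequencing in 16 cultures. The deposited file holds counts of reads per gene, whole numbers without normalization, made by the authors. The submitters' processing notes name STAR, featureCounts, mm10 and hg38. Versions, annotation release and strand setting are not given in the sources used here. Libraries were amplified for 17 PCR cycles without molecular identifiers, so precision from depth covers counting error only.

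Columns were mapped to cultures by label, and 0 were left unmapped. Of 39057 gene rows, 38872 matched GENCODE mouse release M21. Counts were filtered by edgeR's filterByExpr, scaled by TMM and fitted with genotype as the single term by the quasi-likelihood test, with Benjamini-Hochberg adjustment over 12481 genes and a threshold of 0.05 (R 4.3.3, edgeR 4.0.16, limma 3.58.1). CPM used TMM-scaled library sizes, and log2 CPM a prior count of 2. Intervals are 95%. Sex effects came from 1 fit of 4 groups. The log2 ratio of Epas1 to Hif1a was compared by an exact permutation test, and correlations by 100000 permutations within genotype and sex (Python 3.11.15, scipy 1.17.1). The fits were checked on simulated counts. Alternatives were DESeq2 1.42.0 (size factors, Wald test), limma's voom, edgeR's likelihood-ratio test, no low-count filter, a minimum of 10 counts per library, a covariate for sex or for the cell cycle score, separate fits by sex, and each library left out.

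The members and lists were chosen with earlier results of these data known. Genes named are the 10 members, the genes of each pathway list that passed or had the 3 largest changes, and the 3 genes most alike to each member that passed. Further pathway genes were named after their values were seen, as stated where they appear. Raw reads were not used here.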

Additional observations from a re-analysis of the deposited data

How the results depend on the processing

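Hif1a and Egln3 kept their direction under all 8 alternative settings and their call under 7 of them. The exception was the cell cycle score as a covariate, under which 0 genes were called (1597 as reported, with 895 at an unadjusted p under 0.05), 0 of the 10 members (2 as reported), and 0 genes in each of the 3 pathway lists. Under it the log2 fold change changed sign for Epas1 (0.043), Adm (-0.14), Ankrd37 (0.27), Ndrg1 (0.088), Hif3a (0.017), Ube2s (-0.011), Ddit4 (0.0078) and Ramp2 (0.0090), and the median of the glycolysis list moved to -0.024. The score differs by genotype, and the cause of these shifts was not tested. In the 7 other settings the count of genes called ran from 1290 (no filter on low counts) to 1965 (DESeq2's Wald test). A separate fit of the females called 2 genes, against 0 in the fit of 4 groups.

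Leaving out 1 library in turn gave 846 to 2127 genes called. The lowest counts came without APOE4 replicate 7 (846), APOE3 replicate 5 (853) and APOE3 replicate 8 (952). It gave 2 to 3 members called, the third being Egln2, without APOE3 replicate 1 (adjusted p = 0.0388) and without APOE4 replicate 2 (0.0456). Bnip3 ranged from -0.010 to 0.085 and changed sign in 2 of the 16 fits, and Ndrg1 ranged from -0.042 to 0.013 and changed sign in 1. The log2 ratio of Epas1 to Hif1a stayed between -0.20 and -0.15 (exact p 0.0028 to 0.0112). Among the members, Ankrd37, Vegfa and Egln3 had the fewest reads, 18 to 67, 23 to 101 and 60 to 131 per library, and the call of Egln3 passed at that depth. No paired analysis was possible because the labels give the genotypes no shared replicate numbers.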

Other observations

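Further genes of vessel signaling that were listed as targets of the pathway, named after their values were seen, had lower levels in APOE4 cells without passing the test. The log2 fold changes were -0.15 (SE 0.0520, adjusted p = 0.0597) for Tek, the angiopoietin receptor, -0.23 (SE 0.0782, adjusted p = 0.0538) for Nos3, the endothelial nitric oxide synthase, -0.21 (SE 0.0748, adjusted p = 0.0693) for Cxcl12, a chemokine, and -0.34 (SE 0.159, adjusted p = 0.156) for its receptor Cxcr4, by edgeR. The coactivators Ep300 (-0.13, adjusted p = 0.0579) and Crebbp (-0.15, adjusted p = 0.0531), which HIF alpha subunits recruit to their targets, also had negative values that did not pass. Among genes of collagen processing, P4ha1 (-0.09, adjusted p = 0.0656) and Plod2 (0.19, adjusted p = 0.0688) had values of opposite sign, and neither passed, whereas P4ha2 rose. Ep300, Crebbp, P4ha1 and Plod2 were also named after their values were seen.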
